A study of Mus musculus with 6 samples.

Results

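The cells described here are tumor macrophages whose transcripts of Il1a, Cd207 and Dcstamp outweighed those of other macrophage programs. They numbered 1165 of 17562 tumor cells kept for analysis and of 3318 macrophages, and the series holds 58561 deposited cells in all. A kept tumor cell had 200 to 4000 detected genes and at most 25% mitochondrial UMIs, a UMI being 1 counted RNA molecule. A macrophage was a kept cell with at least 3 UMIs of C1qa, C1qb and C1qc together, none of Cd3g and at most 1 of Pecam1. Its UMIs of Il1a, Cd207 and Dcstamp were then added, as were those of Cx3cr1 and Tmem119, and those of Ccl8, Folr2, Pf4 and Cd209f. A macrophage was a member where the first sum was at least 2 and exceeded both of the others. Most other macrophages were led by Cx3cr1 and Tmem119 or by the Folr2 and Pf4 set, and these 2 groups serve as comparators.

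All 3 tumor libraries came from mammary tumors of female MMTV-PyMT mice aged 10 weeks, in which the mouse mammary tumor virus promoter drives the polyoma middle T oncogene in the mammary epithelium, so that tumors form in animals with intact immunity. Minced tissue was digested with the same collagenase for all 3 libraries. For the 60 min control this was done for 60 min by standard means. Other tissue was processed in a microfluidic platform, whose digestion device recirculated the enzyme and eluted cells at intervals. The eluted cells passed once through a dissociation and filter device. The platform gave a 15 min interval and, later in the same run of tissue, a 60 min interval. Live cells, negative for the dye SytoxBlue, were sorted and profiled by droplet 3′ RNA sequencing. The study states n = 1 per condition for this experiment and that the conditions of a replicate used tissue of the same mouse. Kidneys of C57BL/6 mice aged 12 weeks were processed in the same way. With 1 library per condition no difference below has a replicate test, and every interval is a 95% interval that covers counting error only.

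Macrophages in tumors engulf dying cells, remodel matrix and signal to other immune cells and to tumor cells, and they differ with their position and origin. Il1a encodes interleukin-1α, a cytokine of the alarm response that acts through the same receptor as interleukin-1β. Cd207 encodes langerin, a C-type lectin best known from Langerhans cells of the epidermis and also made by some dendritic cells and macrophages. Dcstamp encodes a membrane protein needed for the fusion of osteoclasts and of multinucleate giant cells, and Mmp12 encodes macrophage elastase, a secreted metalloproteinase.

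In mm10 the 4 genes named for these cells are protein-coding genes on separate chromosomes. Il1a lies at chr2:129299610-129309972 on the minus strand and Cd207 at chr6:83671215-83677857, also on the minus strand. Dcstamp lies at chr15:39745930-39760938 and Mmp12 at chr9:7344381-7369499, both on the plus strand. The 80 bases before the transcript starts are shown because genes of one program can be compared at their promoters. They are from RefSeq on GRCm38.p6, 5′ to 3′ in the direction of the gene, with matches to TGANTCA, the letters bound by AP-1 factors such as Fos and Jun, in capitals. Dcstamp had no listed promoter in the reference used, so it was not searched. Mmp12 has 2 listed starts, and Mmp13 and Il1b are added as a collagenase and a cytokine that were also high in these cells.
Il1a, chr2:129309973-129310052: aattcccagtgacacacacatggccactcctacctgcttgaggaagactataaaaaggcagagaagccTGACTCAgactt
Cd207, chr6:83677858-83677937: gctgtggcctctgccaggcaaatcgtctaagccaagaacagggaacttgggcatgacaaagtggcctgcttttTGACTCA
Mmp12, chr9:7344317-7344396: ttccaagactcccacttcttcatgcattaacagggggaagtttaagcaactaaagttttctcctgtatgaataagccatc
Mmp12, chr9:7347294-7347373: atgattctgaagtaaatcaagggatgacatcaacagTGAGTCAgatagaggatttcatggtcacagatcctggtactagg
Mmp13, chr9:7272434-7272513: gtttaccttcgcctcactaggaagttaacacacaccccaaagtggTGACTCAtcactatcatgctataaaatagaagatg
Il1b, chr2:129371140-129371219: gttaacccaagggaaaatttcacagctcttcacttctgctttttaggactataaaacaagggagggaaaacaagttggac

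The match began 12 bases before the start in Il1a, 7 bases before it in Cd207, 44 before the more downstream listed start of Mmp12 and 35 before that of Mmp13. No match lay in the 80 bases shown, or in the 250 searched, for the other Mmp12 start or for Il1b. TGANTCA reads the same on both strands, and 7.82% of 27025 genes with a listed promoter held it within 250 bases before a start. These are matches of letters and show no binding.

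Members were 530 of 940 macrophages in the 60 min control, 141 of 956 in the 15 min interval and 494 of 1422 in the 60 min interval. Their share of macrophages was 56.4% (Clopper-Pearson interval 53.1 to 59.6) in the control, 14.7% (12.6 to 17.2) at 15 min and 34.7% (32.3 to 37.3) at 60 min. Both platform intervals therefore held a lower share than the control digest. The difference from the control was -41.6 points (Newcombe interval -45.4 to -37.6) at 15 min and -21.6 points (-25.6 to -17.6) at 60 min. Of all kept cells they made up 9.24% (control), 2.43% (15 min) and 8.20% (60 min). On that base the 60 min interval was only 1.04 points lower than the control, with an interval for the difference of -2.06 to -0.0196, since it also held more macrophages. Whether these differences exceed those between repeated runs, or hold in another mouse, cannot be told with 1 library each.

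The share depended on the competing programs as well as on the program itself. Macrophages led by Cx3cr1 and Tmem119 were 27.2% of control macrophages, 70.6% of those at 15 min and 44.8% of those at 60 min. A sum of at least 2 UMIs of Il1a, Cd207 and Dcstamp, whatever the other sums, was found in 77.2%, 59.5% and 64.1% of macrophages in the same order, a narrower range. At 15 min 44.8% of macrophages had that sum but an equal or larger one of Cx3cr1 and Tmem119, against 18.9% in the control. Levels are given as CPM, the UMIs of a gene per 1000000 UMIs of the summed cells. Over all macrophages of the control, 15 min and 60 min libraries, Cx3cr1 stood at 439, 986 and 629 CPM and Dcstamp at 452, 175 and 190 CPM. Il1a stood at 757, 430 and 934 CPM, so the 60 min interval was above the control for Il1a and below it for Dcstamp. Without Il1a in the sum, members were 38.9%, 4.18% and 13.6% of macrophages. As a share of macrophages the order of control, 60 min and 15 min held in each of these counts. As a share of kept cells, a sum of at least 2 whatever the others was more frequent at 60 min (15.1%) than in the control (12.7%).

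**Figure D1:**
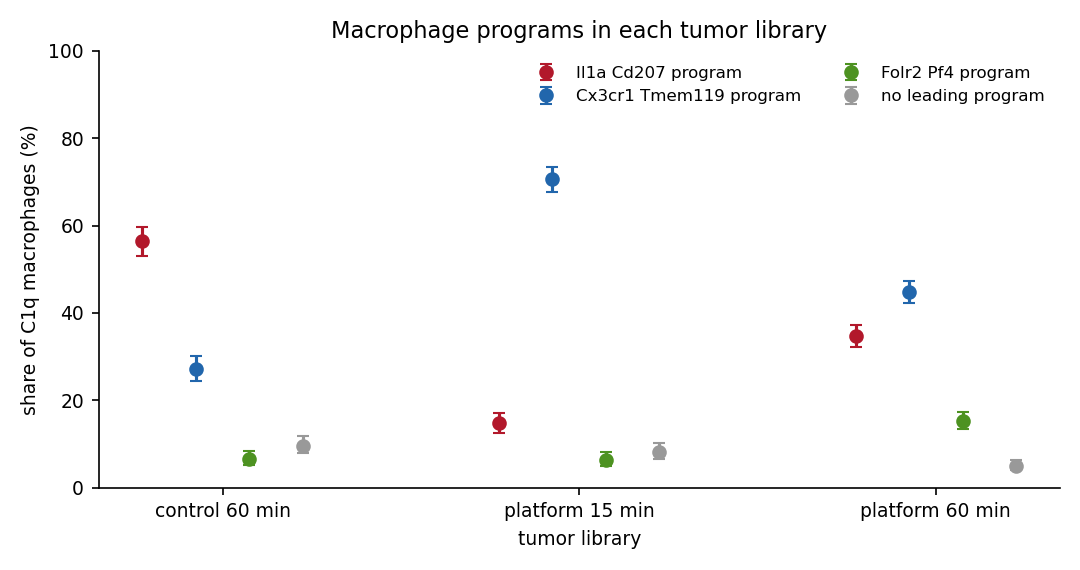
Share of tumor macrophages, in percent, led by each program in the 60 min control, the 15 min interval and the 60 min interval. Points are shares and error bars 95% Clopper-Pearson intervals, which cover counting error only. The Il1a Cd207 program is highest in the control (56.4%) and lowest at 15 min (14.7%), where the Cx3cr1 Tmem119 program is highest (70.6%).

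Il1a and Dcstamp carried the rule far more often than Cd207. Of the 1165 members, 580 held Il1a and Dcstamp but no Cd207, 321 held all 3 genes, 139 held Il1a alone and 65 Dcstamp alone, while 40 held Cd207 with Dcstamp, 18 Cd207 with Il1a and 2 Cd207 alone. Il1a was detected in 87.0%, 88.7% and 95.5% of members in the control, 15 min and 60 min libraries. Dcstamp was detected in 92.8%, 85.8% and 79.6%, and Cd207 in 40.2%, 21.3% and 27.9%. Cd207 thus names the program but was absent at this depth from most of its cells. At the edge of the rule, the 23 members whose sum was exactly 2 had 287 CPM of Mmp12 (213 to 378), and the 20 macrophages with a leading sum of 1, just outside it, had 52.7 CPM (19.3 to 115) at a lower depth, with medians of 6314 UMIs inside and 2823 outside. At the other edge the values pooled over libraries did not separate. The 45 members that led by 1 UMI had 393 CPM (339 to 454) and the 62 macrophages with a sum of at least 2 that was tied had 386 CPM (340 to 437). The direction differed by library. At 15 min the tied cells had more Mmp12, 562 CPM in 16 cells against 207 CPM in 9 members. In the control and at 60 min the members had more, 323 against 234 CPM and 601 against 419 CPM, with overlapping intervals.

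The levels of the rule's own genes are a description, since they chose the cells. Il1a reached 1137 CPM in control members, 1366 at 15 min and 2160 at 60 min, against 161 to 252 CPM in the Cx3cr1 Tmem119 macrophages. The median member held 8, 15 and 21.5 Il1a UMIs. Dcstamp reached 669, 389 and 385 CPM, and Cd207 378, 88.9 and 146 CPM. Both were highest in the control, the reverse of Il1a. At 15 min 1 cell held 51.4% of the Cd207 UMIs, and the level without it was 43.7 CPM.

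**Figure D2:**
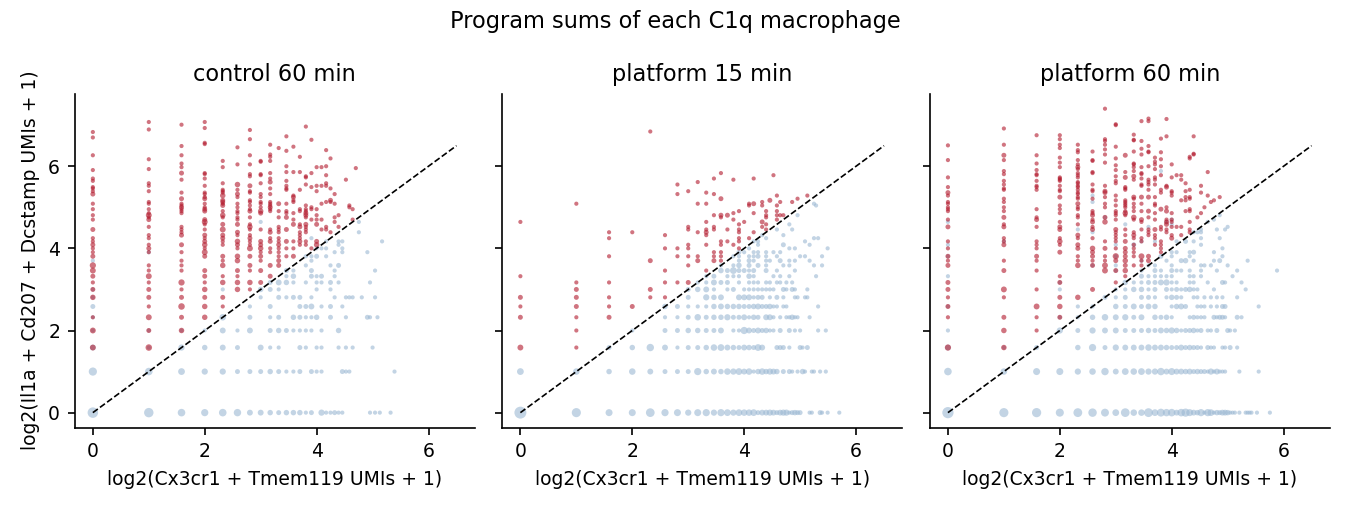
UMIs of Il1a, Cd207 and Dcstamp (vertical) against UMIs of Cx3cr1 and Tmem119 (horizontal) in tumor macrophages, both as the log2 of the sum plus 1, in 1 panel per library. Red points are members, pale blue points other macrophages, larger points more cells with the same sums, and the dashed line marks equal sums. Pale points above the line have a larger Folr2 Pf4 sum or too few UMIs, and at 15 min only 141 of 956 macrophages are members.

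The label of macrophage was borne out by genes outside the rule. Csf1r, the receptor for macrophage colony-stimulating factor, stood at 591, 700 and 606 CPM in the control, 15 min and 60 min members, and Cd68, a lysosomal glycoprotein of phagocytes, at 525, 479 and 526 CPM. When every cell was thinned to 3000 UMIs, Csf1r was found in 82.9%, 82.8% and 82.6% of members and in 2.80%, 1.63% and 2.60% of kept cells without C1q UMIs. The 3 libraries were therefore nearly the same in these identity genes. The dendritic-cell genes Flt3, a growth factor receptor, and Zbtb46, a transcription factor, were at 0 to 0.316 CPM and 0 to 1.20 CPM, and Epcam, which Langerhans cells and epithelium share, at 74.0, 60.8 and 35.0 CPM.

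Markers of T and NK cells, endothelium and granulocytes were scarcer in members than in kept cells without C1q UMIs. Their summed levels were 1.58 to 12.5 CPM for 8 T and NK cell genes, 5.37 to 9.40 CPM for 6 endothelial genes and 17.5 to 120 CPM for 6 granulocyte genes, against 365, 541 and 1459 CPM in cells without C1q UMIs. Monocyte markers summed to 65.2, 124 and 80.7 CPM, fibroblast markers to 69.3, 9.40 and 66.3 CPM and B cell markers, mostly Ighm, to 105, 149 and 108 CPM. In cells without C1q UMIs these sums were 188, 1315 and 16.6 CPM, so B cell markers were higher in members. The B cell sums of the Cx3cr1 Tmem119 macrophages were 129, 165 and 149 CPM. A list of 9 epithelial genes was the most abundant and summed to 1593, 1592 and 872 CPM in members, against 32831 CPM in cells without C1q UMIs and 1137 to 2015 CPM in the Cx3cr1 Tmem119 macrophages. At least 20 epithelial UMIs were found in 12.8%, 7.80% and 8.70% of members. Their part in the results was not tested. Members' median depth was 12571.5, 11863 and 12239 UMIs and their median mitochondrial share 5.27%, 5.37% and 5.32%. The libraries shared 16 to 21 cell barcodes, none of them among members.

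Mmp12 marks these cells by label but was not used by the rule. It stood at 409 CPM in control members, 363 at 15 min and 480 at 60 min, while the Cx3cr1 Tmem119 macrophages had 104, 110 and 83.0 CPM. The members were thus higher in every library. The ratio was 3.94 (interval 3.50 to 4.45) in the control, 3.29 (2.94 to 3.68) at 15 min and 5.78 (5.30 to 6.31) at 60 min. Against the Folr2 Pf4 macrophages, with 128, 120 and 38.4 CPM, the ratio was 3.19 (2.59 to 3.97), 3.02 (2.38 to 3.89) and 12.5 (10.2 to 15.5). In that comparator Mmp12 was found in only 5, 5 and 13 cells, and 1 cell held 50%, 68.8% and 49.5% of its UMIs. With the cell richest in Mmp12 left out of each group, the ratio to the Folr2 Pf4 macrophages was 5.93, 8.45 and 23.7, and that to the Cx3cr1 Tmem119 macrophages 4.10, 3.12 and 6.22. These ratios compare cells that a correlated readout separated, so they describe the program and do not test it.

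Mmp12 was uneven among the members themselves. Members holding Cd207 had 480, 733 and 799 CPM of Mmp12 in the control, 15 min and 60 min libraries. Members with Dcstamp but no Cd207 had 388, 284 and 449 CPM, and the 32, 19 and 88 members admitted by Il1a alone had 94.5, 46.0 and 69.4 CPM. The order was the same in each library, and the Il1a-only members lay no higher than the Cx3cr1 Tmem119 macrophages. By size of the 3-gene sum, Mmp12 went from 30.7 CPM at a sum of 0 to 442 CPM at 20 or more in the control, from 55.1 to 323 CPM at 15 min and from 26.6 to 431 CPM at 60 min. The climb was not even, since control cells with a sum of 10 to 19 had 240 CPM and those with 5 to 9 had 375 CPM. In cells thinned to 3000 UMIs, Mmp12 was found in 30.0%, 26.1% and 32.6% of members, in 11.3%, 10.6% and 9.49% of the Cx3cr1 Tmem119 macrophages and in under 1% of kept cells without C1q UMIs.

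**Figure D3:**
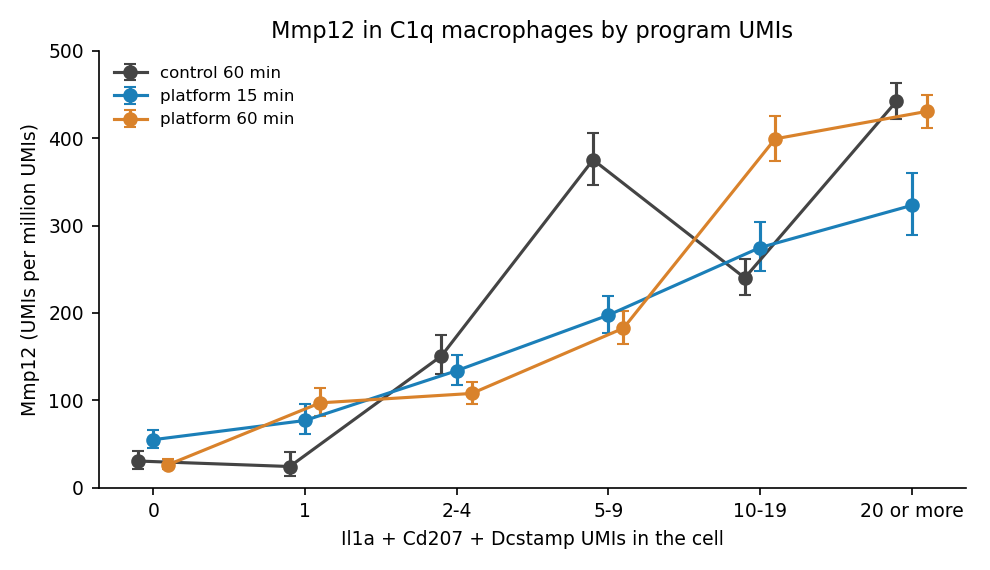
Mmp12 level, in CPM, of macrophages grouped by their UMIs of Il1a, Cd207 and Dcstamp together, 1 line per tumor library, with exact Poisson intervals. Cells with a sum of at least 20 stand at 323 to 442 CPM and cells with a sum of 0 at 26.6 to 55.1 CPM.

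Detection of the rule genes together was uneven in the whole set of macrophages, thinned to 3000 UMIs. Dcstamp was detected in 48.7% of cells with an Il1a UMI and in 26.0% of cells without one. It was detected in 75% of cells with a Cd207 UMI and in 32.8% of the others. Mmp12 was detected in 39.2% of cells with a Cd207 UMI, against 15.1% without, and in 29.0% of cells with a Dcstamp UMI, against 10.6% without. Cd207 and Il1a were the loosest pair of the rule, with Cd207 in 12.7% of cells with an Il1a UMI and in 6.55% without. At 15 min that difference was 2.09 points with an interval of -0.54 to 5.16, which includes 0.

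Members held most of the tumor's Mmp12 RNA in 2 of the 3 libraries. They contained 13.2%, 2.91% and 10.9% of the UMIs of all kept cells in the control, 15 min and 60 min libraries, but 81.4%, 36.6% and 67.8% of those of Mmp12. For Plau, the urokinase that activates plasminogen, the shares were 73.1%, 25.9% and 50.1%. For Il1b, which encodes interleukin-1β, they were 59.9%, 18.2% and 50.6%. By contrast Arg1, the arginase of alternatively activated macrophages, had only 1.15%, 0.359% and 0.559% of its UMIs in members, whose level was 0.158 to 1.25 CPM. Arg1 was thus nearly absent from these cells, and its RNA lay elsewhere in the tumor.

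Compared with the Cx3cr1 Tmem119 macrophages, members differed by at least 2-fold in the same direction in all 3 libraries in few genes. Of 10618 genes compared, 42 were higher, which is 0.396%, and 19 lower, 0.179%. These calls carry no test, and they include rule genes. Without the cell richest in each gene, 29 of the 42 and 13 of the 19 calls remained. The balance of directions was not stable, with 23 higher and 17 lower in cells thinned to 3000 UMIs and 109 higher and 212 lower at 1.5-fold. It was 80 and 98 without the control library, 115 and 223 without the 15 min interval and 54 and 52 without the 60 min interval. The median gene was at -0.17 on the log2 scale, so the typical gene was slightly lower in members.

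Among matrix proteases and their inhibitors, 2 of 13 compared genes were higher than in the Cx3cr1 Tmem119 macrophages and none lower, with a list median of 0.12 on the log2 scale. They were Mmp12 and Mmp13, a collagenase. Mmp13 stood at 98.8, 47.0 and 68.8 CPM in control, 15 min and 60 min members against 35.3, 14.6 and 19.4 CPM. Plau stood at 306, 195 and 383 CPM against 143, 110 and 189 CPM, higher in each library but short of 2-fold in 1 of them.

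Of 14 genes of the IL-1 family and inflammasome, 2 were higher, the rule gene Il1a and Il1r2, a decoy receptor that binds IL-1 without signalling. Il1r2 stood at 117, 28.8 and 54.9 CPM in members and at 52.7, 5.92 and 8.65 CPM in the comparator. Il1rn, which encodes the secreted IL-1 receptor antagonist, stood at 514, 130 and 578 CPM against 271, 43.9 and 115 CPM, and narrowly missed 2-fold in the control. Il1b stood at 6710, 4267 and 8885 CPM in members. Its ratio to the Cx3cr1 Tmem119 macrophages ranged from 1.37 at 15 min to 3.31 at 60 min. The antagonist and the decoy were thus higher in these cells in each library, while Il1a was higher because the rule chose cells by it. The list's median was -0.07.

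The chemokine list had 3 of 11 genes higher and none lower, with a median of 0.85 against -0.17 for all genes. The neutrophil attractants Cxcl1 and Cxcl2 were 2.06 to 5.80 times and 2.38 to 4.18 times as high as in the Cx3cr1 Tmem119 macrophages. Cxcl2 reached 7974, 3609 and 12954 CPM. Ccl5, a T cell attractant, stood at 230, 140 and 540 CPM against 88.3, 31.3 and 81.1 CPM, though 1 cell held 64.7% of its UMIs at 15 min. The interferon list had 2 of 12 genes past 2-fold, Rsad2 and Oasl1. Rsad2, the antiviral protein viperin, rested at 15 min on 6 cells, of which 1 held 67.8% of its UMIs, and was not past 2-fold without its richest cells.

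Several other genes led this comparison. Tnip3, an inhibitor of NF-κB activation, stood at 287, 261 and 223 CPM in members against 112, 74.6 and 30.9 CPM. Il7r, the interleukin-7 receptor, stood at 254, 123 and 120 CPM against 97.0, 51.4 and 39.1 CPM. Dusp5, a nuclear phosphatase of ERK, was 2.28 to 3.18 times as high. Slc7a11, the cystine transporter, was 2.02 to 6.10 times as high and the only one of 12 Nrf2 and metal-handling genes past 2-fold. The anti-apoptotic Bcl2a1a was 1.99 to 4.60 times as high, and Malt1, a paracaspase of NF-κB signalling, 1.97 to 4.37 times. Bcl2a1a has near-identical paralogs between which reads can be divided, so its level is uncertain. No gene of the 10 on the NF-κB feedback list passed 2-fold throughout, at a list median of 0.56.

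The fusion gene set followed Dcstamp only in part. Of 8 compared genes for cell fusion and osteoclasts, only Dcstamp, a rule gene, passed 2-fold in all libraries, with a list median of 0.38. Ocstamp, which acts with Dcstamp in fusion, stood at 27.5, 11.3 and 14.8 CPM against 11.4, 10.6 and 5.45 CPM. Acp5, the tartrate-resistant acid phosphatase, stood at 1361, 586 and 1204 CPM against 793, 642 and 689 CPM, and so was not higher at 15 min. The osteoclast genes Calcr and Oscar, the calcitonin receptor and a collagen receptor, were at 0 in members of all libraries. No gene of 8 for MHC class II, 18 for glycolysis and hypoxia with 16 compared, or 12 for the cell cycle passed 2-fold in either direction.

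Few genes were lower in members than in the Cx3cr1 Tmem119 macrophages. Among abundant ones Hspa1b, an inducible heat shock protein, was the only one past 2-fold throughout, at 203, 67.0 and 791 CPM against 571, 138 and 1755 CPM. Hspa1a, its near-identical partner, was 1.96 to 2.41 times lower, and reads may be divided between the pair. Hes1, a target of Notch, was 1.95 to 4.60 times lower. Maf, a transcription factor of resident macrophages, was 1.94 to 3.35 times lower, and Fcrls, an Fc receptor-like gene of microglia, 1.90 to 3.97 times lower. The summed level of the 12 stress genes the study lists, which are immediate-early and heat shock genes but not these 2, was 10594 CPM in control members and 12661.5 CPM in control Cx3cr1 Tmem119 macrophages. At 15 min this sum was higher in members, 24510 against 22106 CPM, and at 60 min lower, 18954 against 22793 CPM.

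The Folr2 Pf4 macrophages stood further from the members. Of 9077 genes compared, 162, or 1.78%, were higher in members and 470, or 5.18%, lower, by at least 2-fold in all 3 libraries. Without each gene's richest cell 152 and 417 of those calls remained. The comparator held 63, 61 and 219 cells, so its levels are less precise than those of the members.

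Most genes of MHC class II, which present antigen to T cells, were higher than in the Folr2 Pf4 macrophages. Of 8 genes of MHC class II, 6 were higher and none lower, at a median of 1.49 against -0.22 for all genes. Cd74, the invariant chain, stood at 33582, 28890 and 31902 CPM in members and at 13523, 6162 and 9492 CPM in the comparator. H2-Aa, a class II α chain, was 2.09 to 3.93 times as high. Itgax, the integrin CD11c, stood at 156, 180 and 149 CPM against 25.1, 12.5 and 30.3 CPM. It was nearly equal in members and Cx3cr1 Tmem119 macrophages, at a ratio of 1.02 to 1.14, as were Cd74 and H2-Aa, at 0.941 to 1.26 and 0.93 to 1.22. These genes therefore set both programs apart from the Folr2 Pf4 cells.

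The highest ratios to the Folr2 Pf4 macrophages included Grasp, a scaffold protein, at 203, 77.0 and 250 CPM against 11.1, 9.35 and 32.0 CPM. Il7r was 7.16 to 14 times as high, Il1b 4.68 to 16.6 times and Tnfsf13b, the B cell factor BAFF, 5.62 to 12.0 times. Napsa, an aspartic protease, was 5.01 to 19.2 times as high and Glipr1 5.57 to 8.19 times. Of the 8 fusion genes, the rule gene Dcstamp, Ocstamp and Src, a kinase needed by osteoclasts, were higher. Tfec was lower, and the list's median was 1.44. Of 11 proteases and inhibitors, Mmp12, Mmp13 and Plau were higher, and the inhibitors Timp2 and Serpinb6a lower. The IL-1 list gave 3 higher of 14, the rule gene Il1a, Il1b and Il1r2, and 2 lower. The lower ones were Irak3, an inhibitor of the IL-1 receptor pathway, and Il18bp, which binds interleukin-18.

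All 15 genes of a resident perivascular list were lower in members than in the Folr2 Pf4 macrophages, with a median of -4.82. The comparator was chosen by genes of the same kind, Folr2 and Pf4 among them, so the count is no independent evidence. F13a1, the coagulation factor XIII A chain, stood at 3.74, 1.88 and 5.37 CPM in members and at 984, 1232 and 515 CPM in the comparator. Mrc1, the mannose receptor, stood at 24.8, 11.3 and 61.9 CPM against 943, 1356 and 906 CPM. Lyve1, a hyaluronan receptor, was at 0 to 0.598 CPM against 90.6 to 390 CPM. Clec10a, a lectin for galactose, was 15.2 to 36.2 times lower, and the chemokine Ccl6 5.11 to 31.2 times lower. Members nearly lacked F13a1 and Lyve1, but not Ccl6, which stood at 91.5, 100 and 127 CPM in them.

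**Figure D4:**
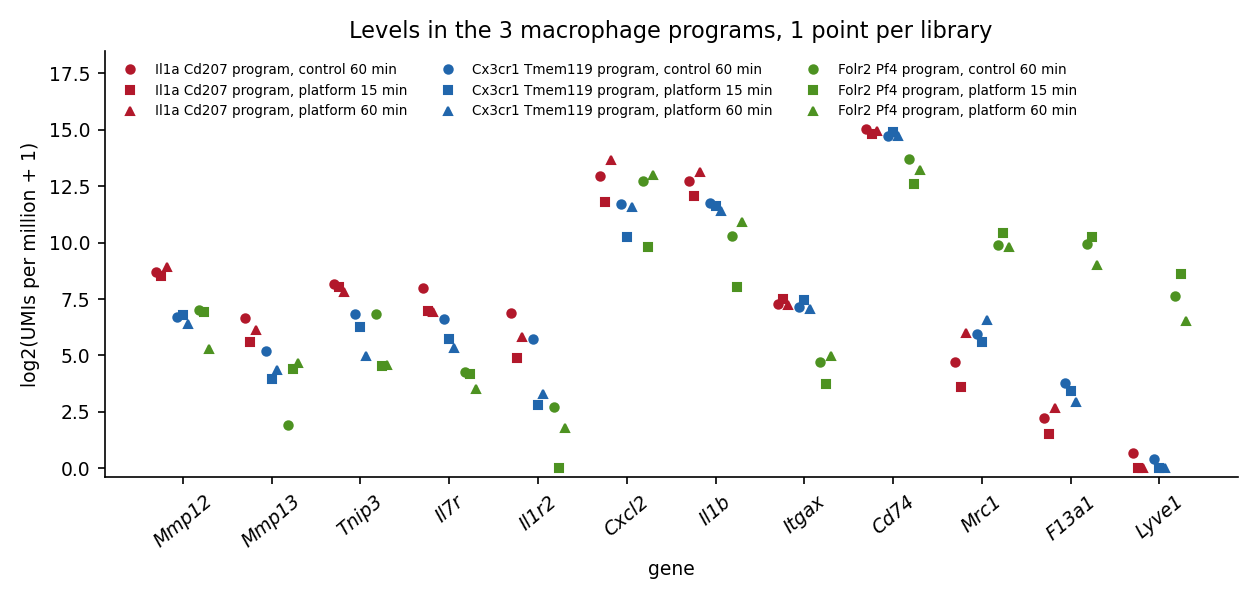
Levels of named genes as the log2 of CPM plus 1 in members (red), Cx3cr1 Tmem119 macrophages (blue) and Folr2 Pf4 macrophages (green), with 1 point per tumor library whose shape gives the library. Mmp12 is higher in members than in both comparators in all 3 libraries, while F13a1 and Mrc1 are highest in the Folr2 Pf4 macrophages.

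TGANTCA within 250 bases before a start was found in 6 of 32 genes with a listed promoter that were higher than in the Cx3cr1 Tmem119 macrophages (18.8%) and in 17 of 105 that were higher than in the Folr2 Pf4 macrophages (16.2%). It was found in 33 of 367 that were lower than in the latter (8.99%), beside the 7.82% of all listed genes. Rule genes are in these groups, Il1a and Cd207 among them. Without rule genes the counts were 4 of 30 (13.3%), 15 of 103 (14.6%) and 31 of 363 (8.54%). The 7.82% covers listed genes whether or not they were compared in macrophages, and the share among compared genes was not computed. The gene groups were chosen with these data, and the shares are descriptions.

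Members of the platform libraries differed from control members in immediate-early genes. Of 7749 genes compared at 15 min, 535, or 6.9%, were at least 2-fold higher than in the control and 420, or 5.42%, lower. Of 8545 compared at 60 min, 124, or 1.45%, were higher and 180, or 2.11%, lower. Without each gene's richest cell, 478 and 417 of the calls at 15 min and 116 and 170 of those at 60 min remained. The balance of directions changed with depth. In cells thinned to 3000 UMIs, 144 genes were higher and 309 lower at 15 min, and 64 higher and 106 lower at 60 min. Among genes with at least 500 UMIs, 43 were higher and 153 lower at 15 min, and 46 higher and 23 lower at 60 min. Membership itself shifted between libraries, so a difference of level can come from which cells met the rule or from a change within them, and these cannot be told apart.

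Egr1, an early growth response transcription factor, stood at 215 CPM in control members, 1979 at 15 min and 622 at 60 min. The ratio to the control was 9.22 (interval 8.66 to 9.82) at 15 min and 2.90 (2.73 to 3.08) at 60 min. Fos and Jun, whose products pair as AP-1, stood at 725, 5273 and 2325 CPM and at 477, 3778 and 1360 CPM. Klf2, a Krüppel-like factor, stood at 144, 1038 and 663 CPM, and Atf3, of the stress response, at 728, 3282 and 2157 CPM. For all of these the 15 min interval was highest and the control lowest. Dusp6, a phosphatase of ERK, was 7.13 times as high at 15 min (5.63 to 9.07) and 1.83 times at 60 min (1.44 to 2.32). The noncoding transcripts Gm26802, at 5.68, 85.8 and 6.47 CPM, and Gm26522, at 16.9, 199 and 29 CPM, were high at 15 min alone. The same ratio of 15 min to control was, on the log2 scale, 3.21 for Egr1 in members, 2.41 in the Cx3cr1 Tmem119 macrophages and 2.80 in the Folr2 Pf4 macrophages. For Klf2 it was 2.85, 0.71 and 1.78, and for Il10, an anti-inflammatory cytokine, -4.64, -4.94 and -5.54. The directions were shared by the 3 programs in these genes, and a difference in size between programs was not tested.

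Of the 12 stress genes the study lists, 6 were higher and 1 lower at 15 min, and 4 were higher at 60 min. Their summed level in members was 10594 CPM in the control, 24510 at 15 min (2.31 times) and 18954 at 60 min (1.79 times). In the Cx3cr1 Tmem119 macrophages the same ratios were 1.75 and 1.80, and in the Folr2 Pf4 macrophages 1.26 and 1.99. On this sum the platform libraries were thus higher in all 3 programs. The sum weights genes by their level, so abundant ones such as Fos and Jun count more than scarce ones. For its tumor cell clusters the study describes the stress response as generally similar across conditions. It used a score over a larger gene set and the average level of each of these 12 genes, which are other measures than this sum. Whether the ratios differ between programs was not tested.

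Several genes of the members' own profile were lower at 15 min than in the control. Of 12 IL-1 and inflammasome genes 3 were lower and none higher. Granulocyte markers were lower with them, 4 of 4 compared, with a sum of 120 CPM in control members, 17.5 at 15 min and 31.4 at 60 min, and their part in these values was not tested. Il1rn was 3.95 times lower (3.43 to 4.56), and the inflammasome sensor Nlrp3, at 528, 200 and 682 CPM, 2.63 times lower (2.35 to 2.96). Of 14 chemokines 6 were lower and 2 higher. Cxcl1 stood at 1729, 318 and 1754 CPM and so was low at 15 min only. Cxcl3, another neutrophil attractant, stood at 154 CPM in the control, at 29.4 CPM at 60 min and at a lone UMI (0.626 CPM) at 15 min. Il10, the anti-inflammatory cytokine, stood at 219, 8.77 and 164 CPM, 25 times lower at 15 min (14.9 to 45.9). Mir155hg, the host gene of miR-155, had 3 UMIs at 15 min and was 36.6 times lower (12.4 to 178), while the 60 min interval, at 69.3 CPM, was near the control's 68.7 CPM.

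Of 11 Nrf2 and metal-handling genes 4 were lower at 15 min and none higher. Srxn1, the sulfiredoxin that repairs peroxiredoxins, stood at 384, 37.0 and 229 CPM, and Txnrd1, thioredoxin reductase, at 402, 58.9 and 233 CPM. Both had the 60 min interval between the others. Plaur, the urokinase receptor, and Bcl2a1a were 3.54 and 3.36 times lower at 15 min and within 2-fold of the control at 60 min. The adenosine receptor gene Adora2b, at 38.0, 1.88 and 14 CPM, and Cdc42ep2, at 26.7, 1.88 and 10.7 CPM, were lower at both intervals. Il7r was 2.07 times lower at 15 min (1.78 to 2.41) and 2.11 times at 60 min (1.94 to 2.30). Of other strong ratios at 15 min, those of Inhba, an activin subunit, and Retnla, of alternative activation, rested on 10 and 11 control cells, of which 1 held 52.2% and 68.7% of the UMIs. S100a9, a neutrophil protein, was found in 20.6% of control members, 2.13% at 15 min and 1.01% at 60 min, and in 20.3%, 5.60% and 3.15% of kept cells without C1q UMIs. Its control level of 62.6 CPM was 26.0 CPM without the 1 cell that held 58.5% of its UMIs.

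In members, Ifnb1, Cxcl10 and several inflammatory ligands were highest in the 60 min interval. Ifnb1, which encodes interferon-β, stood at 6.43, 6.89 and 84.4 CPM, a ratio of 13.1 (9.62 to 18.4) at 60 min, where 104 members held it. In the control 1 cell held 48.8% of its UMIs. Cxcl10, an interferon-induced chemokine, stood at 171, 435 and 1119 CPM, 6.56 times the control at 60 min (6.16 to 6.99). Ifit1, an interferon-induced RNA sensor, was 5.42 times as high at 60 min (4.52 to 6.53) and Isg15, a ubiquitin-like antiviral protein, 2.72 times (2.56 to 2.89). Of 11 interferon genes 3 were past 2-fold higher at 60 min and 4 at 15 min, with none lower. The list's median was 0.59 at 15 min and 0.49 at 60 min, against 0.15 and -0.11 for all genes. The 12 listed genes summed to 587, 700 and 1256 CPM in control, 15 min and 60 min members. The sums were 391, 525 and 569 CPM in Cx3cr1 Tmem119 macrophages. In Folr2 Pf4 macrophages they were 510, 1337 and 1083 CPM, highest at 15 min.

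Several inflammatory ligands were also highest at 60 min. Tnf, the tumor necrosis factor, stood at 543, 477 and 1691 CPM. The chemokines Ccl4, at 3463, 6677 and 15592 CPM, and Ccl3, at 1626, 3283 and 6081 CPM, were highest at 60 min. Ccl12, a monocyte attractant, stood at 68.6, 187 and 355 CPM. Gdf15, a cytokine of cell stress, stood at 88.8, 58.3 and 444 CPM, 5.01 times the control at 60 min (4.58 to 5.48). Of the 14 chemokines 5 were higher at 60 min and 2 lower, and of 10 NF-κB feedback genes 3 were higher and none lower. The chemokine list summed to 16688, 15526 and 39529 CPM in members. Its sum was also highest at 60 min in the Cx3cr1 Tmem119 macrophages, at 8556, 8386 and 12162 CPM. In the Folr2 Pf4 macrophages it was 14498, 8376 and 22007 CPM. In members at 60 min Ccl8 was 7.72 times the control, at 36.9 CPM, although it counts against membership in the rule. Lyz1, at 4.33, 0.626 and 62.0 CPM, lay in 20 cells at 60 min and shares sequence with Lyz2. Mgp, a matrix protein, had 68.7% of its 60 min UMIs in 1 cell and stood at 2.98 CPM without it.

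Among genes lower at 60 min, epithelial transcripts were prominent. Of 8 compared epithelial markers 7 were lower and none higher, at a median of -1.54, and the list's sum was 872 CPM against 1593 CPM in the control. That sum was also lower in the Cx3cr1 Tmem119 macrophages, 1137 against 1949 CPM, but not in the Folr2 Pf4 macrophages, 1238 against 966 CPM. Krt8 was found in 59.0% of kept cells without C1q UMIs at 60 min and in 77.0% in the control. Sfn, an epithelial 14-3-3 protein, stood at 21.1, 5.01 and 3.63 CPM, Lrg1, a secreted glycoprotein, at 34.7, 11.3 and 6.00 CPM, and Clu, the chaperone clusterin, at 16.3, 15.7 and 2.53 CPM. Ly6a, a surface protein of progenitors and activated cells, stood at 40.5, 15.7 and 7.73 CPM. Gpnmb, a glycoprotein of lysosome-rich macrophages, stood at 15.2, 0 and 0.789 CPM but lay in only 6 control cells.

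**Figure D5:**
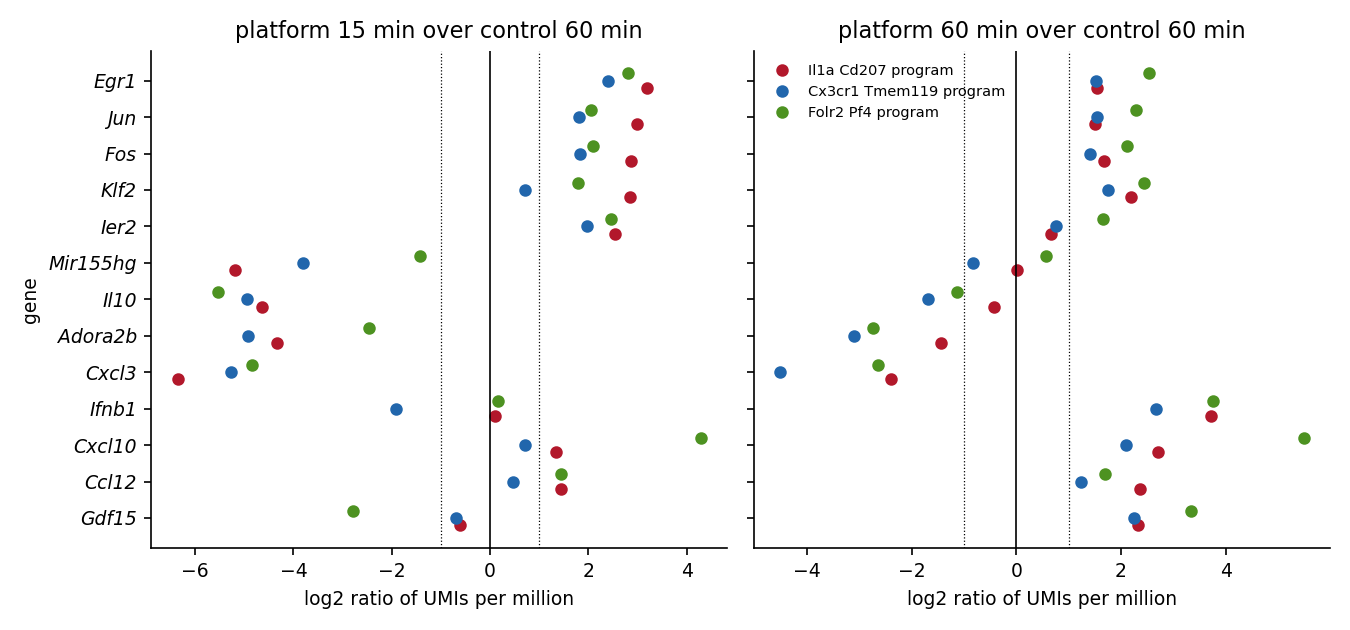
Ratio of each platform interval to the 60 min control for named genes, as log2 of CPM, in members (red), Cx3cr1 Tmem119 macrophages (blue) and Folr2 Pf4 macrophages (green), with dotted lines at 2-fold and no error bars. A group with fewer than 3 UMIs of a gene is set at 3, so points such as Cxcl3 of members at 15 min and Ifnb1 of Folr2 Pf4 macrophages depend on that floor. Egr1 in members stands at 3.21 at 15 min and 1.54 at 60 min.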

How the data were processed

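The authors deposited raw UMI counts per gene and cell for tumor and kidney, made with Cell Ranger 3.1.0 on mm10, in 1 matrix a tissue in which aggregation had evened read depth between libraries. Cells were assigned to libraries by the barcode suffix and the deposited list of aggregated libraries. Kept tumor cells had 200 to 4000 genes and at most 25% mitochondrial UMIs. Doublets were limited only by the gene maximum, and Scrublet was an alternative. The 3 tumor libraries held 8152 to 8198 cells and 90414805 to 101222030 UMIs as deposited, and 5736 to 6024 kept cells.

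Counts were summed over the cells of a program and library and given per 1000000 UMIs (CPM). Genes entered a program comparison with at least 10 UMIs in every library and a platform comparison with at least 50. A ratio took 3 UMIs as its floor. Leading genes of a program comparison were the 12 highest and 10 lowest outside the rule, ranked on the library closest to 1. Those of a platform comparison were 8 each way, with rule genes not left out. All leading genes had at least 100 UMIs. They were joined by members of 24 lists holding 270 genes, of which 1 was not matched by symbol. The members and lists were chosen with earlier results of these data known. Motifs were searched in RefSeq promoters (GRCm38.p6). The scripts (Python 3.11.15, numpy 2.4.6, scipy 1.17.1, pandas 2.3.3, scanpy 1.11.5) were tested on simulated data.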

Additional observations from a re-analysis of the deposited data

Results flagged for a closer look

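Kidney macrophages, which enter no comparison above, were kept with at most 3000 genes and 50% mitochondrial UMIs, limits unlike those for tumor. Among them were also cells that met the rest of the rule. In the kidney 60 min control they were 50 of 824 C1q macrophages, or 6.07% (Clopper-Pearson interval 4.54 to 7.92), and in the kidney 60 min interval 36 of 1513, or 2.38% (1.67 to 3.28). The kidney 15 min interval had 0 of 140, which allows a share of up to 2.14% by the limit of 3 counts and of up to 2.60% by the Clopper-Pearson bound, so it was not separated from the 60 min interval. No kidney library serves as a control without such cells, so these shares are set only against the limit that a count of 0 allows. Il1a alone admitted 36 of the 50 and 29 of the 36 cells. Cd207 was found in 9 and 2 of them and Dcstamp in 6 and 5. Mmp12 had 254 UMIs in 27 cells of the control and 342 UMIs in 21 cells of the 60 min interval, with at most 45 and 52 UMIs in a cell. The median kidney cell that met the rule held 6856 and 6117 UMIs, fewer than the tumor members. A like share was thus not measured at a like depth or with like limits.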

How the results depend on the processing

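No paired analysis was possible because each condition had 1 library. No single value changed sign, but the order of 2 values did in places. Of the alternatives, 87 values stayed close to the reported ones and 74 moved. Member shares of macrophages moved with the definition: thinned to 3000 UMIs the control had 50.5% and the 15 min difference was -35.2 points, and without Il1a in the sum the difference was -34.8 points and the shares of kept cells 6.38%, 0.689% and 3.20%, the shares of macrophages being 38.9%, 4.18% and 13.6%. With a sum of at least 2 whatever the others, the shares were 77.2%, 59.5% and 64.1% of macrophages and 12.7%, 9.81% and 15.1% of kept cells, with differences of -17.7 and -13.2 points, and the 60 min interval passed the control as a share of kept cells. Without the gene maximum, members were 8.49% and 7.48% of kept cells in the 60 min control and interval, and with at most 10% mitochondrial UMIs 13.5%, 3.05% and 11.1%.

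Counts of genes past the fold depended on depth. Against the Cx3cr1 Tmem119 macrophages (42 higher, 19 lower), 1.5-fold gave 109 and 212, at least 50 UMIs 22 and 7, thinning 23 higher, and leaving out each gene's richest cell 30 lower. Leave-one-out over libraries gave 54 to 115 higher and 52 to 223 lower. Against the Folr2 Pf4 macrophages (162 and 470), 1.5-fold gave 329 and 973, at least 50 UMIs 221 lower, thinning 96 and 259, and leave-one-out 207 to 301 higher and 619 to 826 lower. Within members, at least 10 UMIs gave 1352 higher at 15 min and 368 higher and 660 lower at 60 min; thinning gave 144 and 309 at 15 min and 64 and 106 at 60 min; 1.5-fold gave 1609 and 856 at 15 min and 409 and 773 at 60 min; and at least 500 UMIs gave 43 and 153, then 46 and 23. More genes were thus lower than higher at 15 min when thinned or at 500 UMIs, the reverse of 535 and 420, and at 60 min more were higher at 500 UMIs, the reverse of 124 and 180. Against the Cx3cr1 Tmem119 macrophages the balance turned at 1.5-fold, without the control (80 and 98) and without the 15 min interval (115 and 223).

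The pooled Mmp12 ratio to the Cx3cr1 Tmem119 macrophages (4.48) was 5.17 by per-cell means, 5.47 thinned and 3.70 to 4.99 leaving out a library. That to the Folr2 Pf4 macrophages (6.31) was 9.0 by per-cell means, 8.85 without Il1a, 25.4 thinned, 13.3 without the richest cells, 3.22 without the 60 min interval and up to 8.26 without another library. The stress ratios were 2.27 and 1.72 by per-cell means, 1.96 and 1.57 without Il1a and 2.24 and 1.69 thinned. At full depth, cells with Il1a held Cd207 more often by 10.1 points and Dcstamp by 30.7 points. The cause of these moves was not tested. The sum whatever the others, the minimum of 500 UMIs, the thinned stress sums and the fits without the richest cell were chosen after seeing the data.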
